A study of Mus musculus with 8 samples.

Results

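The BCL2 family of apoptosis regulators was examined in mouse pancreatic islets through 10 genes, taken by symbol: the anti-apoptotic Bcl2, Bcl2l1, Bcl2l2 and Mcl1, the pore-forming Bax and Bak1, and the BH3-only Bcl2l11, Bbc3, Bid and Bad. All 10 had a row among the 16333 genes of the deposited tables. Islets came from 2 NFATc2βKO mice (KO below) and 2 wild-type mice, all of the strain labelled Agouti/C57BL6. In the KO mice NFATc2 had been removed in adult life, by tamoxifen, from cells that the labels describe as INS-1 expressing; the wild-type mice had also received tamoxifen, without a resulting deletion. After a night in 5.5 mM glucose, the islets of each mouse were divided into an untreated culture and one kept for 2 h in 11 mM glucose with IFNγ (50 ng/mL), TNFα (10 ng/mL) and IL1β (5 ng/mL). No glucose concentration was found for the untreated culture during the 2 h. If it was lower, effects of cytokines and of glucose cannot be told apart. This made 4 groups of 2 libraries, each with 1 female and 1 male mouse, as read from 4 Y-linked genes. Values are given below in that order, female before male, as normalized counts, meaning reads divided by a size factor for each library. The ages of the animals and the promoter that drove the deletion were not stated in the labels.

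Proteins of this family decide whether the outer mitochondrial membrane is opened. Bax and Bak1 form the pores that release cytochrome c; Bcl2, Bcl2l1 (BCL-XL), Bcl2l2 (BCL-W) and Mcl1 hold them in check; and the BH3-only proteins Bcl2l11 (BIM), Bbc3 (PUMA), Bid and Bad bind the protectors or activate the pore formers. Inflammatory cytokines are known to kill beta cells partly through this mitochondrial route, and much of the family's control lies in protein stability, phosphorylation and cleavage, which transcript counts do not measure.

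The region before the transcription start is shown for 5 members: Bcl2l11, Bcl2l1 and Bid, the members that were higher with cytokines in every mouse, Bcl2, the other member with a nominal response, and Mcl1, the member that varied least. The sequences are from RefSeq on GRCm38.p6 and run 5′ to 3′ on the strand of the gene up to the base before its outermost RefSeq start. They lie at chr2:128125788-128126037 (plus strand) for Bcl2l11, chr2:152831729-152831978 (minus strand) for Bcl2l1, chr6:120916854-120917074 (minus strand) for Bid, chr1:106714291-106714540 (minus strand) for Bcl2 and chr3:95658471-95658720 (plus strand) for Mcl1. The 29 bases next to the Bid start were left out because GENCODE places them in an exon. Capitals mark matches on either strand to the NFAT core GGAAA or the FOXO element TGTTTAC.
Bcl2l11: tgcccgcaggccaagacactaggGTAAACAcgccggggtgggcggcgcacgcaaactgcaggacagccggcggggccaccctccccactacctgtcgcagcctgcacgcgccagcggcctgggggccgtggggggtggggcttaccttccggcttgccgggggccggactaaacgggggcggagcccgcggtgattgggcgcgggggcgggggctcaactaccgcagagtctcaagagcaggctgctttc
Bcl2l1: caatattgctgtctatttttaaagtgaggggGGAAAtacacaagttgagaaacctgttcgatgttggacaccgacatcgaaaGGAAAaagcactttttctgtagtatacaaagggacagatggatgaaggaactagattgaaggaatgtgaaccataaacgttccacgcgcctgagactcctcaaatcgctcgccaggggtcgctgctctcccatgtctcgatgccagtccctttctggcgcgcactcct
Bid: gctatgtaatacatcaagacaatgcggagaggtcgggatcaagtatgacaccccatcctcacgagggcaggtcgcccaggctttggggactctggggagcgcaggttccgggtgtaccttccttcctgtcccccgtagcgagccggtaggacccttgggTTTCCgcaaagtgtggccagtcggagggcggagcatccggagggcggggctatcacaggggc
Bcl2: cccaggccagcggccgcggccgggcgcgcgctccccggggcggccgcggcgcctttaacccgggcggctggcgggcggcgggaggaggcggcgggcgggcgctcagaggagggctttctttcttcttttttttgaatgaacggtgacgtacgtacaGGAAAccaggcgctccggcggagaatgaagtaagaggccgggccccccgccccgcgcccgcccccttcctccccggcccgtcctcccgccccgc
Mcl1: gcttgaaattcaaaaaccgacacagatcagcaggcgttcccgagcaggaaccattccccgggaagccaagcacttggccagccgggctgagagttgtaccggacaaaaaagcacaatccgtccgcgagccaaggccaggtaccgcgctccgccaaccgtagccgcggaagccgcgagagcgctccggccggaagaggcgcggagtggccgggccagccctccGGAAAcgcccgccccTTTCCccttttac

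The Bcl2l11 window held the FOXO element from -227 to -221, counted from the start, and no NFAT core. NFAT cores began at -219 and -168 before Bcl2l1, at -91 before Bid, at -94 before Bcl2 and at -28 and -13 before Mcl1. A second Bid core began at -8, in the 29 bases left out of the sequence shown. The 10 members have 16 RefSeq windows of 250 bases, and windows of the same gene are not independent. Of the 16, 11 held an NFAT core, an element so short that 55.6% of all 32851 mouse promoter windows hold it. The FOXO element occurred in 2 of 16, before Bcl2l11 and Bbc3, against 3.17% of all windows. The NF-κB consensus occurred in 2 of 16, before Bcl2l1 and Bbc3, against 7.25%. The Bcl2l1 match lay before an internal start, not in the window shown, and all 250 bases there are in Bcl2l1 exons. In the Bbc3 window 2 overlapping NF-κB matches also overlapped an NFAT core. The interferon element TTCNNNGAA was found in 0 of 16 windows (7.02% of all windows) and the E-box CACGTG in 2 of 16, before Bax and Bbc3 (6.02%). Exons of the gene itself also fill the other internal Bcl2l1 window and the Bak1 window, and cover 197 bases of a Bad window. These are letter matches in a short window and no evidence of binding.

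Per exonic kilobase Mcl1 was the most abundant member and Bcl2 the least. Mcl1 (ENSMUSG00000038612; chromosome 3, 95658788 to 95663176, GRCm38) averaged 813 ± 18.1 normalized counts per exonic kilobase over the 8 libraries (SD). Bcl2l2 followed at 541 ± 42.3, Bcl2l1 at 275 ± 23.6 and Bax at 202 ± 21.6. None of these ranges overlapped its neighbour in the order. Bak1 (116 ± 13.1), Bad (98.2 ± 9.77), Bbc3 (87.1 ± 7.59) and Bcl2l11 (73.4 ± 14.4) came next, each overlapping the next of these 4 on this scale. Bid (37.9 ± 4.31) and Bcl2 (21.4 ± 4.18) stood apart at the low end. The order depends on the length used, here all exonic bases that GENCODE assigns to the gene, which is long for Bcl2 (9.16 kb) and short for Bax (1.58 kb); which transcript forms islets use was not measured.

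**Figure D1:**
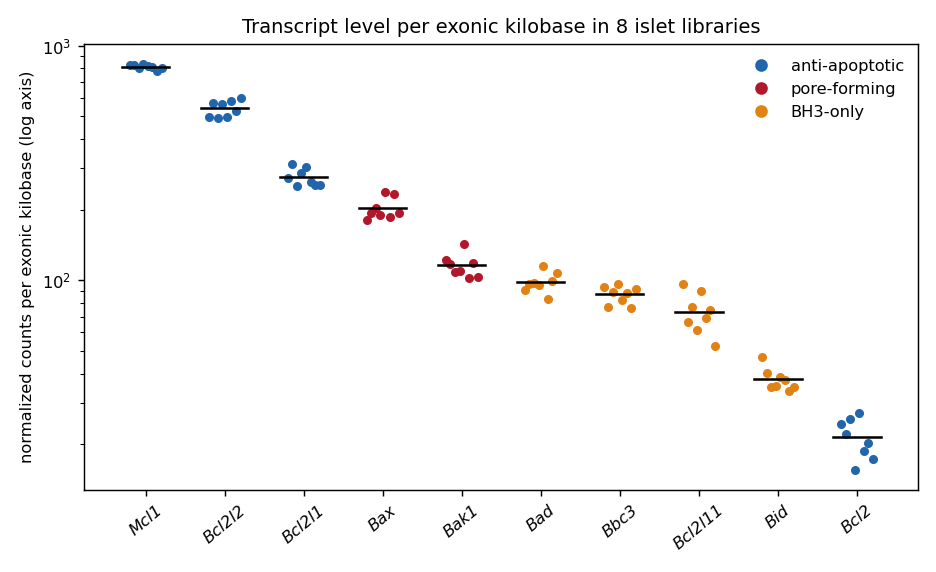
Level of each member in the 8 libraries, in normalized counts per exonic kilobase on a log axis. Points are libraries coloured by role and black lines are means; the top 3 places are anti-apoptotic genes (Mcl1 at 813, Bcl2l2 at 541, Bcl2l1 at 275) and the lowest is Bcl2 at 21.4.

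The members also differed in how steady they were. Mcl1 spanned only 2660.04 to 2849 normalized counts across genotypes, treatments and sexes, a coefficient of variation of 2.22%, at the 0.282 percentile of all genes, whose median was 11.7%. Bcl2l11 (19.6%) and Bcl2 (19.5%) varied most, from 423 to 773 and from 143 to 249.8 normalized counts. The other 7 members had coefficients between 7.82% (Bcl2l2) and 11.4% (Bid). For scale, Bid rested on 109 to 180 reads per library and Mcl1 on 2229 to 4002.

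Several checks bear on all values. The libraries held 14959160 to 28411712 recovered reads. Nfatc2 itself gave a log2 fold change, KO over wild type, of -0.49 untreated and -0.56 with cytokines in the authors' deposited tables (FDR 0.903 and 0.474), and of -0.52 over the mice in limma (adjusted p = 0.00593). That limma fit had sex as a covariate, and without the covariate the call of Nfatc2 was lost. The labels do not say which exons were deleted, and the counts cover the whole gene in whole islets. Of 4 genes known to answer these cytokines, 3 were called higher in KO in the authors' deposited tables, Irf1 being the exception (FDR 1.00), and 0 in wild type. The FDR there was 0.130 for Cxcl10, 0.236 for Birc3, 0.808 for Nfkbia and 1.00 for Irf1 in the authors' deposited table. With the mouse as a block all 4 were called, and without it 0 genes were. With the block, limma gave log2 responses of 2.33 for the chemokine Cxcl10 (adjusted p = 0.00253), 0.80 for the NF-κB inhibitor Nfkbia (adjusted p = 0.00508), 0.79 for Birc3 (adjusted p = 0.00116) and 0.29 for the interferon-induced factor Irf1 (adjusted p = 0.0145). All 10 listed beta-cell markers were measured, and 0 of them was called in any comparison (6 of the 10 in the limma fits). Markers of other cells were present too, with acinar markers summing to 7376 to 125706 normalized counts.

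With cytokines, Bcl2l11 (ENSMUSG00000027381; chromosome 2, 128126038 to 128162547), which encodes the BH3-only activator BIM, had the clearest response of the family, although it did not pass the threshold. Its normalized counts were 617 and 491 in untreated KO, 773 and 533 in cytokine-treated KO, 601 and 423 in untreated wild-type and 721 and 556 in cytokine-treated wild-type islets. The cytokine-treated culture was higher in 4 of 4 mice, by 0.12 to 0.39 on the log2 scale, yet treated and untreated groups overlapped in both genotypes, with female libraries above male ones. With the mouse as a block, limma gave a log2 fold change of 0.27 (SE 0.06, 95% interval 0.15 to 0.40, adjusted p = 0.0655), or 1.21-fold. Over the alternatives this was 0.24 to 0.33, with adjusted p from 0.0613 to 1.00, the last without the block. The authors' deposited tables gave 0.24 (SE 0.31) in KO and 0.32 (SE 0.31) in wild-type islets.

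Bid (ENSMUSG00000004446; chromosome 6, 120891930 to 120916853), whose product is cut by caspase-8 and so links death receptors to mitochondria, was also higher in 4 of 4 mice. Its normalized counts were 125 and 126 in untreated KO, 167 and 143 in cytokine-treated KO, 119.6 and 125 in untreated wild-type and 138 and 133 in cytokine-treated wild-type islets. Treated and untreated groups did not overlap in either genotype. The limma estimate was 0.22 (SE 0.10, 95% interval 0.007 to 0.44, adjusted p = 0.287), which the adjustment over all genes did not retain. Exons of Bcl2l13 on the other strand cover 17.7% of the exonic bases of Bid, and whether the counting used strand was not stated. Bcl2l13 gave -0.02 in the same limma fit (SE 0.03, adjusted p = 0.786).

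Bcl2l1 (ENSMUSG00000007659; chromosome 2, 152780668 to 152831728), the gene of the protector BCL-XL, was the third member higher in 4 of 4 mice. It counted 1153 and 1316 in untreated KO, 1255 and 1438 in cytokine-treated KO, 1171 and 1169 in untreated wild-type and 1388 and 1205 in cytokine-treated wild-type islets. The limma estimate was 0.13 (SE 0.04, 95% interval 0.04 to 0.23, adjusted p = 0.177). The wild-type groups did not overlap and the KO groups did. The per-mouse log2 responses in wild type were 0.24 in the female and 0.04 in the male. Without the wild-type male the fit called the wild-type response, which then rested on the female alone (0.24, adjusted p = 0.0425 in limma). That setting called 1233 genes, 7.56% of those tested, where the authors' deposited table called 2, so the call is not read as a result about Bcl2l1.

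Bcl2 (ENSMUSG00000057329; chromosome 1, 106538178 to 106714274), the founding protector, was higher with cytokines in 3 of 4 mice. It counted 236 and 143 in untreated KO, 223 and 203 in cytokine-treated KO, 185 and 158 in untreated wild-type and 249.8 and 172 in cytokine-treated wild-type islets. The KO female was the exception, at -0.08 on the log2 scale, while the KO male had the largest response at 0.51. The limma estimate was 0.24 (SE 0.11, 95% interval 0.0015 to 0.49, adjusted p = 0.298).

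**Figure D2:**
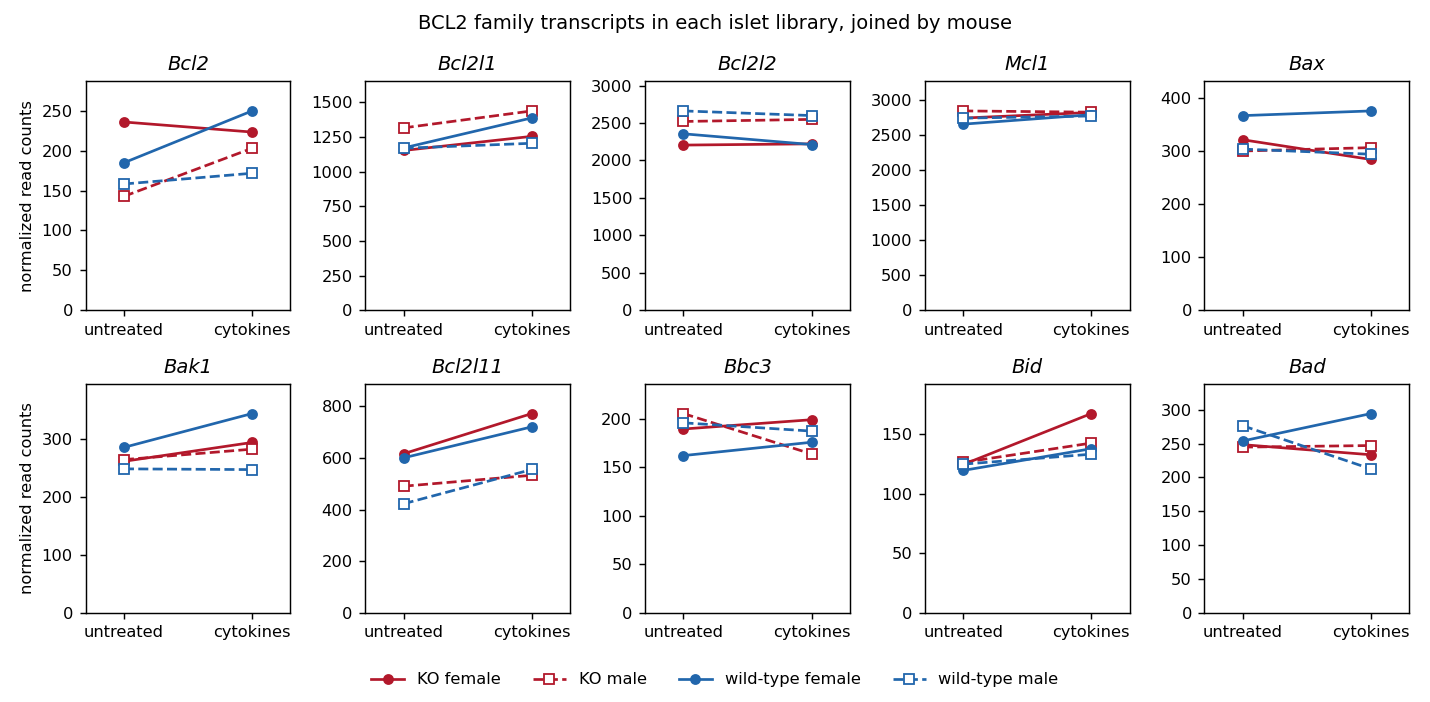
Normalized read counts of the 10 members in the untreated and cytokine-treated culture of each mouse, joined by a line; each panel starts at 0. Lines for Bcl2l11, Bid and Bcl2l1 slope upward in all 4 mice, and those for Mcl1 are nearly flat between 2660.04 and 2849.

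The remaining 6 members had responses whose intervals included 0. Mcl1, a short-lived protector, counted 2747 and 2849 in untreated KO, 2828 and 2832 in cytokine-treated KO, 2660.04 and 2746 in untreated wild-type and 2795 and 2777 in cytokine-treated wild-type islets. Its limma estimate was 0.03 (SE 0.03, 95% interval -0.04 to 0.10), whose upper bound is 1.07-fold. The authors' deposited tables gave 0.02 (SE 0.11) in KO and 0.04 (SE 0.11) in wild type. Bcl2l2 (ENSMUSG00000089682; chromosome 14, 54883377 to 54888234), a protector related to Bcl2, counted 2205 and 2520.4 in untreated KO, 2221 and 2548 in cytokine-treated KO, 2356 and 2661 in untreated wild-type and 2212 and 2599 in cytokine-treated wild-type islets. Male libraries were above female ones in every group. The limma estimate was -0.02 (SE 0.03, 95% interval -0.10 to 0.05).

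Among the pore formers, Bak1 (ENSMUSG00000057789; chromosome 17, 27019810 to 27029009), which sits in the mitochondrial membrane of healthy cells, counted 262 and 265 in untreated KO, 294 and 283 in cytokine-treated KO, 286 and 249 in untreated wild-type and 344 and 247 in cytokine-treated wild-type islets. It was higher with cytokines in 3 of 4 mice, and the KO groups did not overlap. The limma estimate was 0.13 (SE 0.07, 95% interval -0.03 to 0.29). Bax, which moves to mitochondria on activation, gave -0.04 (SE 0.07, 95% interval -0.19 to 0.11), with 2 of 4 mice higher. In the authors' deposited tables the responses in KO and wild type were 0.13 (SE 0.25) and 0.14 (SE 0.25) for Bak1. They were -0.08 (SE 0.23) and -0.0046 (SE 0.23) for Bax in the authors' deposited tables.

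Of the other BH3-only genes, Bbc3 (ENSMUSG00000002083; chromosome 7, 16308393 to 16318205), a p53 target, counted 189.6 and 206 in untreated KO, 199 and 164 in cytokine-treated KO, 162 and 196 in untreated wild-type and 176 and 187 in cytokine-treated wild-type islets. Its limma estimate was -0.05 (SE 0.09, 95% interval -0.26 to 0.16), with the KO male lowest at -0.33. Bad (ENSMUSG00000024959; chromosome 19, 6941861 to 6951899), which survival kinases keep inactive, counted 248 and 245 in untreated KO, 233 and 247 in cytokine-treated KO, 254 and 276 in untreated wild-type and 294 and 212 in cytokine-treated wild-type islets. Its estimate was -0.06 (SE 0.10, 95% interval -0.28 to 0.16), and the wild-type mice diverged, with the female at 0.21 and the male at -0.38. For both genes 2 of 4 mice were higher with cytokines.

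Across roles the counts were these. Of the 10 members in the authors' deposited tables, 0 had an FDR below 0.05, where 0.0429% of all genes did in KO and 0.0122% in wild-type islets, and 0 had an unadjusted p below 0.05 in either, where 1.02% and 0.918% of all genes did. The smallest member p in the authors' deposited tables was 0.301 (Bid) in KO and 0.299 (Bcl2l11) in wild type. In the within-mouse limma fit 0 of 10 members were called, against 0.889% of 16306 genes. At an unadjusted p below 0.05 that fit had 4 members, Bcl2l11, Bcl2l1, Bid and Bcl2, against 16.7% of all genes. All 4 estimates were positive, a direction that held at that p for 9.06% of all genes. Being higher in 4 of 4 mice held for 3 of 10 members and for 12.4% of all genes; being lower in 4 of 4 held for 0 members and 12.5% of genes. The median response was 0.08 over the 10 members and 0.00089 over all genes, and it was 0.08 for the anti-apoptotic, 0.05 for the pore-forming and 0.09 for the BH3-only members. Groups did not overlap for 2 members in KO (Bak1 and Bid; 29.9% of all genes) and for 3 in wild type (Bcl2l1, Mcl1 and Bid; 22.3%).

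**Figure D3:**
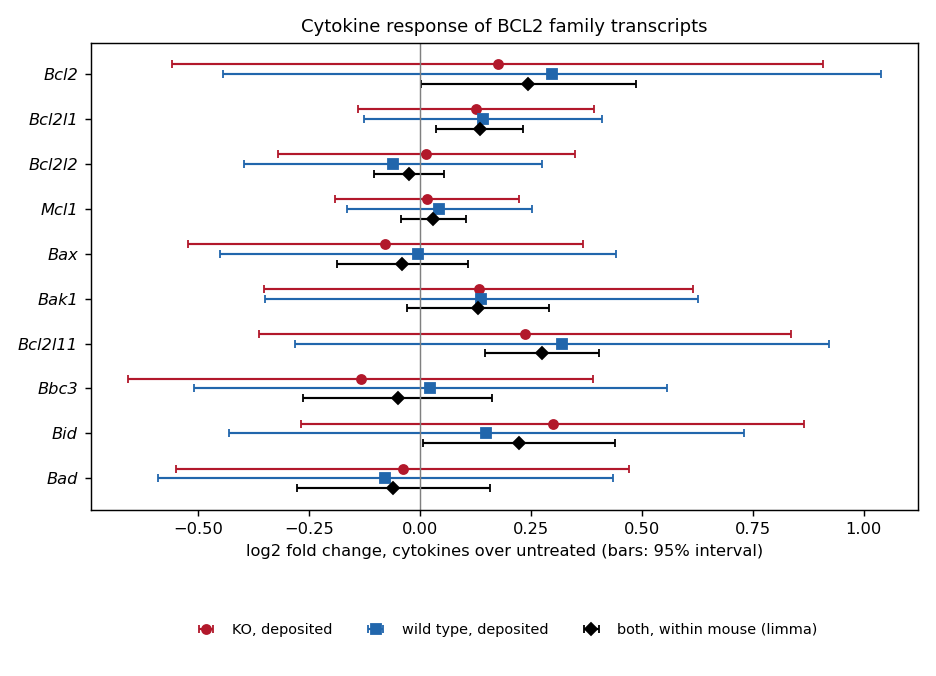
Log2 fold change of each member with cytokines, in KO and wild-type islets from the authors' deposited tables and within mice over both genotypes from limma; bars are 95% intervals. The within-mouse intervals of Bcl2l11, Bcl2l1, Bid and Bcl2 lie above 0, and every interval from the authors' deposited tables includes 0.

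Summed markers of several cell types also differed between the untreated and cytokine-treated cultures. In bulk islets fewer cells of a type and less RNA per cell cannot be told apart. The summed alpha-cell markers, over the 5 of 6 with recovered reads, went from 12626 to 13138 in the KO female, from 4852 to 6331 in the KO male, from 12152 to 12989 in the wild-type female and from 6465 to 6709.9 in the wild-type male with cytokines, and 4 of the 5 had positive limma estimates with 0 called. Summed delta and PP cell markers were lower with cytokines in 4 of 4 mice, from 59658 to 46397 in the KO female, from 48121 to 35656 in the KO male, from 54839.8 to 52136 in the wild-type female and from 41931 to 35289 in the wild-type male. Of these 4 markers 2 had negative and 2 had positive limma estimates, with 0 called. The same split held in each genotype in the authors' deposited tables. Ppy (pancreatic polypeptide) fell in KO in the authors' deposited table (-0.84, SE 0.16, FDR 0.000475). Summed proliferation genes were higher in 4 of 4 mice, from 1351 to 1634 in the KO female, from 1097 to 1597 in the KO male, from 401 to 447 in the wild-type female and from 384 to 478 in the wild-type male. Of the acinar markers 10 of 10 had negative limma estimates over both genotypes. In the authors' deposited tables, however, 9 of 10 were positive in KO and 10 of 10 negative in wild type, with 0 called. Their sum rose in the KO female, from 74640.4 to 125706, and fell in the KO male, from 33759 to 23928. It fell in both wild-type mice. Bhlha15, an acinar transcription factor, fell by 0.38 in limma (SE 0.05, adjusted p = 0.0219).

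The alpha-marker sum was also higher in the female than in the male library of all 4 groups, as were Bcl2l11 and Bcl2. The sums of beta, delta and PP, acinar and stromal markers were higher in the female library of all 4 groups too, and that of duct markers was lower in all 4. For acinar markers, female against male, they were 74640.4 against 33759 in untreated KO, 125706 against 23928 in cytokine-treated KO, 65113 against 10246 in untreated wild-type and 30196 against 7376 in cytokine-treated wild-type islets. Female minus male differences were 0.33 to 0.53 for Bcl2l11 and 0.14 to 0.72 for Bcl2 on the log2 scale. Bcl2l2 was lower in the female library of all 4 groups, at -0.18 to -0.23. A same-signed difference in 4 of 4 groups was found for 39.3% of all genes, and with 1 mouse per sex and genotype sex and mouse cannot be told apart. Stromal markers in the wild-type female went from 1861 to 10080 normalized counts with cytokines. The part of these shifts in the members' values was not tested.

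**Figure D4:**
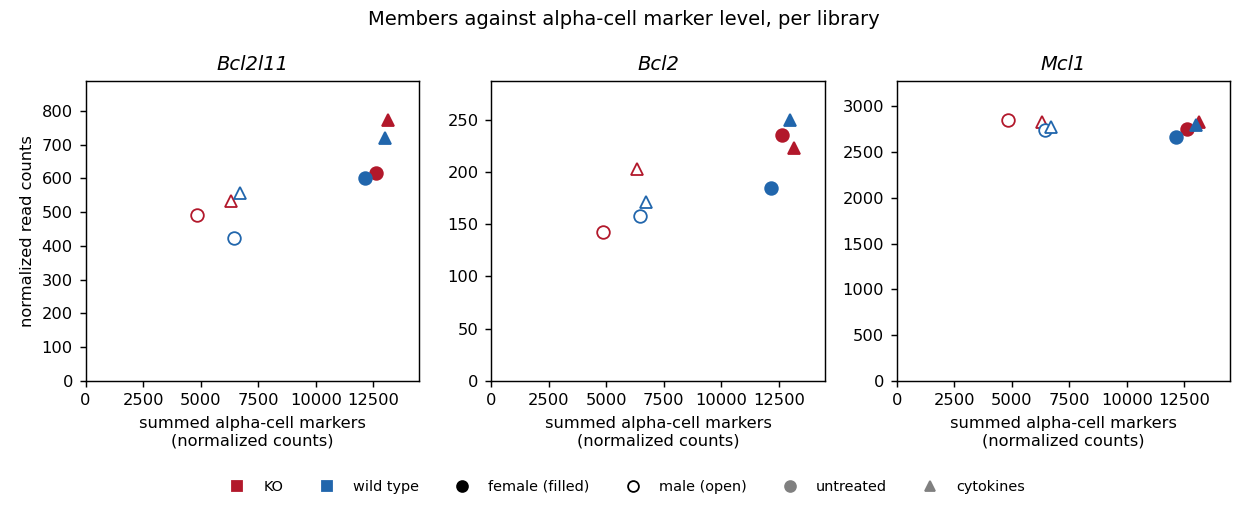
Normalized read counts of Bcl2l11, Bcl2 and Mcl1 in each library against the summed normalized counts of 5 alpha-cell markers. Within each group the filled female library lies to the right of the open male one, and higher for Bcl2l11 and Bcl2; the sums of beta, delta and PP, acinar and stromal markers, not drawn, were also higher in each female library; Mcl1 stays between 2660.04 and 2849.

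To ask whether the cytokine response depended on NFATc2, the deposited response in wild type was subtracted from that in KO. Of the members 0 passed the threshold, as did 0% of all genes. At an unadjusted p below 0.05 there were 0 members and 36 genes (0.22%). Estimates ran from -0.16 (SE 0.38, 95% interval -0.90 to 0.59) for Bbc3 to 0.15 (SE 0.41, 95% interval -0.66 to 0.96) for Bid, on the log2 scale. The interval for Mcl1 was the narrowest, -0.32 to 0.27. That for Bcl2 was the widest, -1.17 to 0.92. These intervals come from the deposited errors and do not use the pairing of cultures within a mouse. An interaction term in limma on the recovered reads, with the mouse as a block, gave narrower ones, -0.06 (SE 0.23, 95% interval -0.58 to 0.46) for Bcl2 and -0.03 (SE 0.07, 95% interval -0.19 to 0.14) for Mcl1. It called 0 members, with the block or without. The share of all genes called by that term is not reported here, so this count is not read as a result about the members.

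Between genotypes no member passed the threshold in any of 3 tests. Untreated, 0 of 10 members had an FDR below 0.05 in the authors' deposited table, against 0.41% of all genes, and with cytokines 0 of 10 did, against 0.998%. An unadjusted p below 0.05 was reached by 0 members in either condition and by 4.89% and 5.88% of all genes. The members' smallest unadjusted p in the authors' deposited tables was 0.568 untreated (Bbc3) and 0.418 with cytokines (Bax). Averaging the cultures of each mouse, with sex as a covariate, limma called 0 of 10 members against 7.29% of genes, and 0 had an unadjusted p below 0.05, against 15.1%; without the covariate that fit called 0 genes in all.

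Bax (ENSMUSG00000003873; chromosome 7, 45461697 to 45466898) had the lowest genotype estimate. It counted 321 and 300.2 in untreated KO, 284 and 307 in cytokine-treated KO, 367 and 304 in untreated wild-type and 376 and 294 in cytokine-treated wild-type islets. The wild-type female libraries were the highest, the other 6 lay between 284 and 321, and the groups overlapped. In the authors' deposited tables KO over wild type was -0.11 (SE 0.22) untreated and -0.18 (SE 0.22) with cytokines. Over the mice limma gave -0.14 (SE 0.14, 95% interval -0.43 to 0.15, adjusted p = 0.856).

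Bid had the highest estimate over the mice, 0.11 (SE 0.16, 95% interval -0.23 to 0.46). With cytokines the KO libraries were above the wild-type ones without overlap, at 155 ± 17.5 against 136 ± 3.27 normalized counts (SD, n = 2). The log2 fold change in the authors' deposited table was 0.19 (SE 0.26, 95% interval -0.32 to 0.69). Mcl1 was also without overlap in both conditions, at 2798 ± 72.4 against 2703 ± 60.9 untreated and 2829.8 ± 2.71 against 2786 ± 13.2 with cytokines. Its difference in the authors' deposited tables was 0.05 (SE 0.10) and 0.02 (SE 0.10). Bad, untreated only, was lower in KO without overlap, at 247 ± 2.57 against 265 ± 15.8. Such separation of 2 against 2 libraries was found for 37% of all genes untreated and 29% with cytokines.

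Over the mice the other members had estimates between those of Bax and Bid. Bcl2l11 gave 0.07 (SE 0.12, 95% interval -0.18 to 0.33) over the mice in limma, Bcl2l1 0.06 (SE 0.12, 95% interval -0.18 to 0.31) and Bcl2 0.07 (SE 0.15, 95% interval -0.24 to 0.38). Bcl2l2 gave -0.05 (SE 0.11, 95% interval -0.28 to 0.18) and Bbc3 0.07 (SE 0.15, 95% interval -0.25 to 0.39). Bak1 gave -0.02 (SE 0.14, 95% interval -0.31 to 0.28) and Bad -0.08 (SE 0.14, 95% interval -0.38 to 0.22). The widest of these intervals reached a fold of 1.37 for Bid, so larger effects lay outside all 10 in that fit. Intervals were wider in the authors' deposited tables, and untreated that of Bcl2 ran from -0.51 to 0.79. These are values of whole islets, and effects in beta cells alone were not measured.

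**Figure D5:**
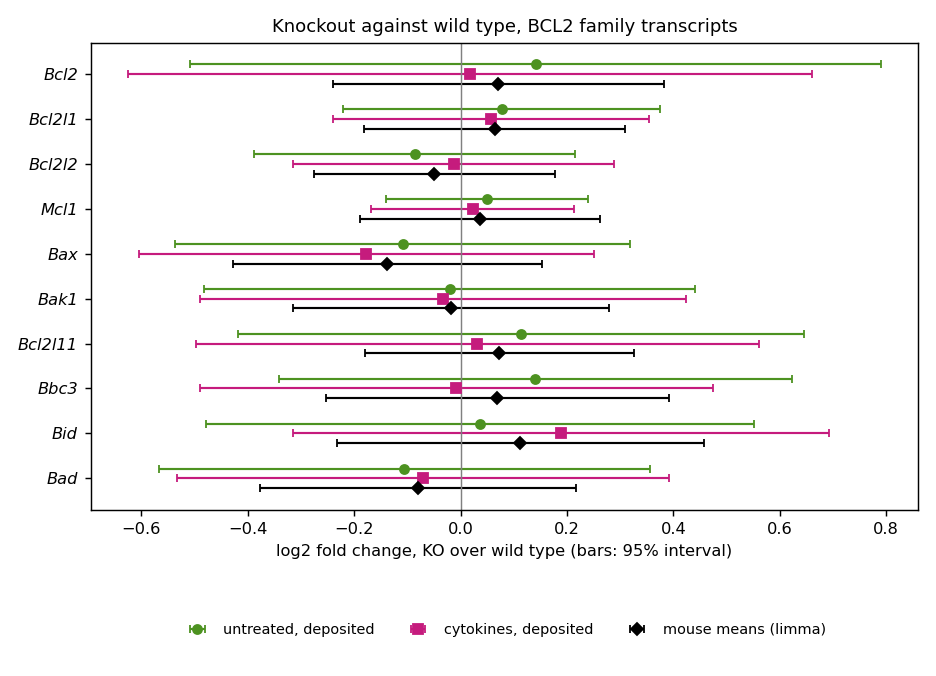
Log2 fold change of each member in KO over wild-type islets, untreated and with cytokines from the authors' deposited tables and for mouse means from limma; bars are 95% intervals. All 30 intervals include 0; Bax has the lowest estimate over the mice (-0.14) and Bid the highest (0.11).

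Cell-type markers differed between the genotypes beside these values. Endothelial markers summed to 4332 to 5628 in KO and 6814 to 8968 in wild-type libraries, and 7 of 8 were called lower over the mice. Lymphocyte markers, with 4 of 10 measured and the T-cell genes Cd3e and Cd4 not analysed here, summed to 341 to 1305 in KO and 156 to 209.7 in wild-type libraries. Most of that sum was Ptprc, which all leukocytes express (742 of 1028 in the cytokine-treated KO female and 151 of 168 in the wild-type one), so it does not measure lymphocytes alone. Stromal markers summed to 4615 to 13199 in KO and 1551 to 10080.3 in wild-type libraries and acinar markers to 23928 to 125706 in KO and 7376 to 65113 in wild-type libraries, with 7 of 8 and 9 of 10 called higher. Macrophage markers summed to 2614 to 3279 in KO and 1748 to 2294 in wild-type libraries, with 4 of 7 measured called higher. Proliferation genes summed to 1097 to 1634 in KO and 384 to 478 in wild-type libraries, with 6 of 6 measured genes called higher. All these calls came from limma over the mice, and none held without the sex covariate. The authors' deposited tables, untreated and then with cytokines, called 0 and 5 of 8 endothelial and 1 and 0 of 8 stromal markers. They called 0 and 0 of 10 acinar markers, 1 and 1 of 7 macrophage markers and 3 and 4 of 6 proliferation genes. The part of these markers in the members' genotype values was not tested.

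Ratios between members give their balance per exonic kilobase, as a description. Bax over Bcl2 ranged from 7.39 in the cytokine-treated KO female to 12.2 in the untreated KO male. It was lower with cytokines in all 4 mice, from 7.92 to 7.39 in the KO female, from 12.2 to 8.78 in the KO male, from 11.5 to 8.74 in the wild-type female and from 11.2 to 9.96 in the wild-type male. Mcl1 over Bcl2l1 stayed between 2.64 and 3.20 and was also lower with cytokines in all 4 mice, from 3.20 to 3.02 in the KO female, from 2.91 to 2.64 in the KO male, from 3.05 to 2.70 in the wild-type female and from 3.15 to 3.09 in the wild-type male. Bcl2l11 over Mcl1 ranged from 0.0656 in the untreated wild-type male to 0.116 in the cytokine-treated KO female, and was higher in the cytokine-treated culture of all 4 mice. Bcl2l11 over Bcl2l1 did not share 1 direction. Untreated and then with cytokines it was 0.306 and 0.352 (KO female) and 0.213 and 0.212 (KO male). For wild type these values were 0.293 and 0.297 (female) and 0.207 and 0.263 (male). How often ratios of other genes move the same way in all 4 mice was not tested.

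The wider pathway was followed with lists of related genes. Of 16 other BCL2-related genes 9 were measured and 0 were called in any comparison; Bcl2a1a to Bcl2a1d, Bcl2l10, Hrk and Bcl2l15 were not analysed here. Bcl2l14 had the smallest p of that list with cytokines in limma, at 0.76 (SE 0.28, adjusted p = 0.219), from 9.31 to 57.7 normalized counts per library. Pmaip1 (NOXA), a BH3-only partner of Mcl1, gave 0.48 (SE 0.18, adjusted p = 0.236). Bcl2l14 also had it over the mice (0.73, SE 0.31, adjusted p = 0.246). In the authors' deposited tables it had the smallest p of the list in KO with cytokines (1.14, SE 0.74) and between genotypes with cytokines (1.11, SE 0.65). Bnip3 had it for the wild-type response (0.22, SE 0.23) in the authors' deposited tables and for the difference of responses (-0.43, SE 0.33). In the authors' deposited tables Bnip3, a mitophagy receptor, also had the smallest p of the list untreated between genotypes (0.31, SE 0.21, FDR 1.00).

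Downstream, the list of caspases, apoptosome and IAP genes had 17 of 17 measured. With cytokines 16 of 17 had positive limma estimates and 1 was called, Birc3, which encodes cIAP2, a ubiquitin ligase of TNF signalling. Birc3 rose 1.72-fold in limma (log2 0.79, SE 0.06, adjusted p = 0.00116), with 401 and 418 in untreated KO, 664 and 833 in cytokine-treated KO, 400.1 and 371 in untreated wild-type and 647 and 619 in cytokine-treated wild-type islets. It was called in KO in the authors' deposited table (0.86, SE 0.18, FDR 0.00335) and not in wild type (0.72, SE 0.18, FDR 0.236), and the difference of these was 0.15 (SE 0.25, adjusted p = 1.00). Between genotypes, Birc5 (survivin), a mitotic gene, was called over the mice and was higher in KO by 2.17 (SE 0.37, adjusted p = 0.000809), at 23.7 to 48.2 against 5.32 to 10.0 normalized counts. Its FDR in the authors' deposited tables was 0.132 untreated and 0.103 with cytokines. That call was lost without the sex covariate, where 0 genes were called, and leaving out any mouse left at most 4 called genes. Htra2 had the smallest p of this list for the difference of responses (0.31, SE 0.40).

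Upstream, 0 of 8 measured genes of the death receptor arm were called in any comparison; Fas was not analysed here. Cflar, the inhibitor of caspase-8, had the smallest p with cytokines in limma at -0.16 (SE 0.04, adjusted p = 0.115). In the authors' deposited tables the smallest p of that arm was for Casp8 in KO (0.23, SE 0.19), Cflar in wild type (-0.20, SE 0.11) and untreated between genotypes (-0.12, SE 0.10), and Tnfrsf10b between genotypes with cytokines (-0.47, SE 0.27). Tnfrsf10b also had it for the difference of responses (-0.66, SE 0.43), and Tnfrsf1a over the mice (0.12, SE 0.11). Of 17 upstream regulators 16 were measured and 1 was called, over the mice only: Trib3, a stress-induced pseudokinase, fell by 0.54 in KO (SE 0.12, adjusted p = 0.00946), with 393 and 521 in untreated KO, 469 and 717 in cytokine-treated KO, 682 and 731 in untreated wild-type and 716 and 873 in cytokine-treated wild-type islets. Trp53, which drives Bbc3, had the smallest p of that list with cytokines, at 0.21 (SE 0.05, adjusted p = 0.0746), while Bbc3 itself gave -0.05. In the authors' deposited tables the smallest p of the regulators was Trib3 untreated between genotypes (-0.63, SE 0.25, FDR 0.535) and Foxo1 with cytokines (-0.35, SE 0.15, FDR 0.535). For the cytokine responses it was Trib3 in KO (0.37, SE 0.27) and Fbxw7 in wild type (0.17, SE 0.12) in the authors' deposited tables, and Ddit3 for their difference (0.22, SE 0.36). The call of Trib3 was also lost without the sex covariate. The median limma response to cytokines was 0.05 for the caspase list, 0.01 for the death receptor arm and 0.04 for the regulators.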

How the data were processed

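RNA was sequenced from islets of 4 mice in 8 libraries. Per the labels' protocols Trizol was used for RNA and standard Illumina steps for libraries. DESeq2, HTSeq, HISAT2 and the build GRCm38 are named in the submitters' processing notes without roles. What the authors deposited is 4 comparison tables of 16333 genes, with a signal (mean normalized count per group), log2 fold change, score, p-value and FDR; 0 per-sample columns were left unused. Per the file headers one genotype is Mut, taken for wild type as the remaining genotype. The SE is the deposited log2 fold change over the score.

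Because group means are sums of 2 whole read numbers times fixed steps, whole reads were recovered for 16306 genes (99.8%), with the overall mean needed for 298; 27 had several solutions. All 10 members were recovered. Libraries were tied to mice by sex. Same-sex cultures deviated together (correlation 0.81 in KO, 0.83 in wild type, 12343 genes), and the series text says each mouse gave both cultures. The planned test for tables without libraries, the authors' FDR below 0.05, was kept for single comparisons. The within-mouse and mouse-mean fits used limma 3.58.1 (R 4.3.3), trended, on log2(reads over size factor + 1), adjusted by Benjamini-Hochberg. Fold changes of low genes are understated on that scale. With 2 mice per genotype p-values rest largely on spread shared across genes. Scripts were tested on simulated data. Exons came from GENCODE M21, promoters from RefSeq (16 windows for all 10 members).

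Members, lists and tests were chosen with earlier results of these data known. Named genes are the members, check genes, and, from the other lists, genes called and the gene with the smallest p in each comparison. Pmaip1 and Bcl2l13 were named after their values were seen. A result for another listed gene is not reported here. Exons of other genes cover part of Bcl2l2 (13.3%), Bax (12.2%), Bak1 (18.2%), Bid (17.7%), Bad (20.5%) and Bcl2 (6.09%), so their counts are uncertain to that extent. Alternatives were pseudocounts of 0.5 and 5, a mean of at least 100, TMM, voom, blocks and leaving out each mouse.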

Additional observations from a re-analysis of the deposited data

Results flagged for a closer look

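Changes of Bcl2l2 with cytokines were small and differed in sign between the genotypes. KO mice were at 0.01 and 0.016 and wild-type mice at -0.09 and -0.03 on the log2 scale. The means differed by 0.0755. The test of this difference on the deposited fold changes gave 0.07 (SE 0.24, adjusted p = 1.00), so it was not called. That test does not use the pairing of cultures within a mouse. The limma interaction with the mouse as a block did not call Bcl2l2 either.

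Bbc3 was higher with cytokines in both females (0.07 and 0.12) and lower in both males (-0.33 and -0.06), a difference between the sexes of 0.2882. That difference was not tested; each sex had 1 mouse per genotype, and Bbc3 rested on 157 to 278 reads per library.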

How the results depend on the processing

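Of 500 member values under alternatives, 451 kept their direction and side of the threshold, 48 reversed, 1 became a call and 0 lost one. The TMM, voom, pseudocount and filter settings reversed 0 members. The call was Bcl2l1 in wild type without the wild-type male, which made 1 member called in place of 0 (range 0 to 1 on leaving out a mouse); it rests on the wild-type female alone, and 1233 genes were called in that setting against 2 as deposited. With the replicate block, the mouse as the pair, the interaction of Bak1 was 0.0017 against -0.0054 as deposited, and the same without the block; the block changed no other member call. The cause of these shifts was not tested.

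All other reversals came from leaving out 1 mouse, and no such value was called. The response to cytokines in KO then ranged from -0.079 to 0.51 for Bcl2, -0.009 to 0.042 for Mcl1, -0.18 to 0.0301 for Bax, -0.33 to 0.071 for Bbc3 and -0.089 to 0.014 for Bad. In wild type it ranged from -0.046 to 0.034 for Bax, -0.0074 to 0.27 for Bak1, -0.064 to 0.12 for Bbc3 and -0.38 to 0.21 for Bad. Within mice of both genotypes it ranged from -0.064 to 0.006 for Bax, -0.11 to 0.041 for Bbc3 and -0.15 to 0.046 for Bad. The genotype difference untreated ranged from -0.26 to 0.46 for Bcl2, -0.021 to 0.17 for Bcl2l1, -0.18 to 0.0095 for Bcl2l2, -0.24 to 0.032 for Bax, -0.12 to 0.081 for Bak1 and -0.13 to 0.38 for Bcl2l11. With cytokines it ranged from -0.23 to 0.31 for Bcl2, -0.047 to 0.16 for Bcl2l1, -0.13 to 0.10 for Bcl2l2, -0.35 to 0.0051 for Bax, -0.25 to 0.22 for Bak1, -0.25 to 0.29 for Bcl2l11, -0.15 to 0.13 for Bbc3 and -0.29 to 0.18 for Bad. Over the mice it ranged from -0.14 to 0.29 for Bcl2, -0.033 to 0.16 for Bcl2l1, -0.15 to 0.053 for Bcl2l2, -0.29 to 0.019 for Bax, -0.19 to 0.15 for Bak1, -0.15 to 0.29 for Bcl2l11, -0.021 to 0.16 for Bbc3 and -0.17 to 0.0064 for Bad. Where 1 library was left in a group, its spread was assumed to be that of the other groups.

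Counts over all genes moved more. The cytokine response in KO called 7 genes as deposited, 0 in limma without a block, 20 with the replicate block and 2 to 26 on leaving out a mouse. In wild type it called 2, 1 when adjusted over genes with a mean of at least 100, 0 without and 25 with the block, and 318 to 1233 on leaving out a mouse. The genotype difference called 67 untreated and 163 with cytokines, 38 and 84 over the genes with that mean, 2 and 2 without a block, 342 and 614 with sex as the block, and 0 to 7 and 0 to 6 on leaving out a mouse. The within-mouse fit called 145, 0 without the block and 30 to 175 on leaving out a mouse. The fit over mouse means called 1189, 0 without the sex covariate and 0 to 4 on leaving out a mouse.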
